A study of Mus musculus with 6 samples.

Results

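Small nucleolar RNA host genes are described here through 9 mouse genes chosen by symbol, Gas5, Snhg1, Snhg3, Snhg5, Snhg6, Snhg8, Snhg12, Snhg15 and Zfas1, out of 56691 rows in the deposited table. The cells were mouse macrophages of a line spelled RAW246.7 in the labels, with genotype WT. Before plating they had all received LPS, the lipopolysaccharide of bacterial outer membranes, to which macrophages respond through an innate immune receptor. They then spent 24 h on MSA-DA hydrogels (3 libraries) or on MSA-ZW hydrogels (3 libraries). The series title sets the gels in the context of fibrin networks on macroporous hydrogels that differ in protein absorption. The comparison asks how expression differed between macrophages on the MSA-DA and MSA-ZW gels. The members were chosen with the difference between these same gels in view, so their levels and differences are a description and carry no test.

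A small nucleolar RNA (snoRNA) host gene is transcribed as a long precursor, and the snoRNAs are released from its introns after splicing. The snoRNAs join protein complexes in the nucleolus and guide chemical modification of ribosomal RNA, with box C/D snoRNAs directing ribose methylation and most box H/ACA snoRNAs directing pseudouridylation. The spliced exons that remain are noncoding or code for no conserved protein in this family, and for Gas5 and several relatives they are known to be degraded by nonsense-mediated decay when they are translated. Many such genes also begin transcription in a pyrimidine tract, as ribosomal protein genes do. Gas5 was named for its accumulation in growth-arrested cells.

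The start regions of the host genes are shown first because the choice of members by symbol did not use them. RefSeq (GRCm38.p6) had a promoter entry for 8 of the 9 members, the exception being Snhg6. Each line gives 50 bases before and 50 bases from the annotated start, 5′ to 3′ on the gene's strand. Capitals mark TATAAA or TATATA, and a C followed by at least 4 C or T bases that begins between 10 bases before and 20 bases after the start. For Gas5 the second of 2 annotated starts is shown, and the first (chr1:161034551-161034650) held neither feature on the sense strand. Snhg1 is included as a member without a match on this strand.
Gas5 (chr1:161035116-161035215, plus strand): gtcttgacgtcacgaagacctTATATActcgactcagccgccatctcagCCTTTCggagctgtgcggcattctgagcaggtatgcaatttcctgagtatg
Snhg5 (chr9:88522848-88522947, minus strand): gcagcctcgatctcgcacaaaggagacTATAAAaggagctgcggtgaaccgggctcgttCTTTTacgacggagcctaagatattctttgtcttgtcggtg
Snhg8 (chr3:123508287-123508386, minus strand): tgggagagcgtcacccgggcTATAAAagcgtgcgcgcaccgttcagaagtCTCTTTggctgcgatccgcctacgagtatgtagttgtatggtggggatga
Snhg12 (chr4:132308628-132308727, plus strand): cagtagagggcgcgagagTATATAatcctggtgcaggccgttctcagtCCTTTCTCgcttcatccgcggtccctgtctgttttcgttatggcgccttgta
Snhg1 (chr19:8723437-8723536, plus strand): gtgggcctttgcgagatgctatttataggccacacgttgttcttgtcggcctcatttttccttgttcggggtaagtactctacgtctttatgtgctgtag

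TATAAA or TATATA occurred on the sense strand in 5 of the 8 members with an entry (Gas5, Snhg3, Snhg5, Snhg8 and Snhg12). Of all 32851 promoters of the table, 4.81% held one in the same window. This share and those below count single starts, of which the members had 9, while members are counted by gene. The match began 29 bases before the start in Gas5, 23 in Snhg5, 30 in Snhg8 and 32 in Snhg12, and 22 bases after the annotated start in Snhg3. On the opposite strand 3 of 8 members had one, against 3.51% of all promoters. TATATA reads the same on both strands, so the matches of Gas5 and Snhg12 counted on both. The pyrimidine run was found in the same 5 members on the sense strand, a feature that 39.1% of all promoters had, and in 2 of 8 members on the opposite strand, against 44.9% of all promoters. Both features together stood at 5 member starts, and in 2.0% of all promoters. Snhg1, Snhg15 and Zfas1 had neither on the sense strand within these windows, and the presence of a motif is a match of letters only.

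Named box C/D snoRNAs are shown for 4 of the hosts described first below, because they are the products for which these genes are known. Gas5 carries Snord47 and Snord80, Snhg5 carries the near-identical pair Snord50a and Snord50b, Snhg6 carries Snord87 and Zfas1 carries Snord12. Sequences are those of GENCODE M21 (GRCm38), written 5′ to 3′ on the snoRNA's strand, which is plus for the snoRNAs of Gas5 and Zfas1 and minus for those of Snhg5 and Snhg6. Capitals mark TGATGA near the 5′ end, the letters of a C box, and CTGA near the 3′ end, the letters of a D box.
Snord47: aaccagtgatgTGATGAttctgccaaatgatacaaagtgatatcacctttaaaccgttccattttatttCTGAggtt
Snord80: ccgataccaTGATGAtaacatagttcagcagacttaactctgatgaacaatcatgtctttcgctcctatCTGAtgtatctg
Snord50a: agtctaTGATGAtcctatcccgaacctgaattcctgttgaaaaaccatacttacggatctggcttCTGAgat
Snord50b: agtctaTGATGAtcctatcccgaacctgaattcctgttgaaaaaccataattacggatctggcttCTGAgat
Snord87: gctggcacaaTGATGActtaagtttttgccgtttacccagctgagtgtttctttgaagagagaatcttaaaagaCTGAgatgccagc
Snord12: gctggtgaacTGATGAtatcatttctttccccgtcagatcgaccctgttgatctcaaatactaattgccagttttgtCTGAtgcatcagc

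Snord50a and Snord50b differed by 1 substitution, C50A, counted from 1 at the 5′ end with the base of Snord50a first. The deposited table held 32 snoRNA rows inside the members on the same strand, 9 in Gas5, 8 in Snhg1, 5 in Snhg12, 3 in Zfas1, 2 each in Snhg3 and Snhg5, and 1 each in Snhg6, Snhg8 and Snhg15. In GENCODE M21, 31 of them were matched by gene ID or symbol, and 20 held both boxes in these exact letters.

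The counts are read here for the host genes and not for the mature snoRNAs. Of the 32 snoRNA rows, which were 60 to 205 bases long, 31 had no count in any library. The exception was Snora73a in Snhg3, with 0, 1 and 1 counts on MSA-DA and no count on MSA-ZW. A count of 0 allows up to 3 counts per library, or 0.164 to 0.210 CPM on MSA-DA and 0.165 to 0.184 CPM on MSA-ZW (CPM is the count relative to the TMM-scaled library total). These limits cover counting error only. How reads shared by a snoRNA row and its host were assigned is not stated, so the zeros say nothing of snoRNA levels. Of all 1158 snoRNA rows deposited, 190 had any count and 11 were tested. By edgeR 0 of the 11 passed at the adjusted threshold, with 2 at an unadjusted p under 0.05. These were Snord73b (0.77, 1.86 and 1.02 CPM on MSA-DA, against 0.60, 0.80 and 0.44 CPM on MSA-ZW) and Snora2b (0.84, 0.82 and 0.63, against 0.60, 0.37 and 0.16 CPM). Rows this scarce can pass the filter through the gel where they are higher, so nothing is read from these unadjusted p-values. DESeq2 gave no adjusted p for any of the 11, and limma on log2(FPKM + 1) called 1.

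Count totals were 14374912 to 18346615 per library on MSA-DA and 16347934 to 18193026 on MSA-ZW. All 7 macrophage markers examined were detected at a mean of at least 1 CPM, with summed levels of 3913 to 3986 CPM on MSA-DA and 4543 to 4587 CPM on MSA-ZW. Lyz2 (mean 1769 CPM on MSA-DA, against 2291 CPM on MSA-ZW), Csf1r (939 against 1080 CPM) and Spi1 (161 against 174 CPM) had lower means on MSA-DA. Cd68 (611 against 588 CPM), Itgam (138 against 120 CPM), Ptprc (301 against 288 CPM) and Adgre1 (25.8 against 25.1 CPM) had higher means on MSA-DA. Of 13 markers of fibroblasts, epithelium, endothelium, T cells and B cells, 12 stayed under 1 CPM in every library. Mitochondrial genes took 3.10% to 3.12% of counts on MSA-DA and 2.73% to 2.78% on MSA-ZW. Rn18s-rs5, AY036118 and Lars2 together took 0.151% to 0.160% on MSA-DA and 0.265% to 0.560% on MSA-ZW, highest in MSA-ZW replicate 2. The part of these shifts in the differences below was not tested. In bulk RNA, fewer expressing cells and less RNA per cell cannot be told apart. Whether libraries on the same gel represent separate cultures is not stated, so the p-values here measure only sample-to-sample spread that may be technical.

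All 9 host genes passed the filter on low counts, and all 9 had a higher fitted level on MSA-DA than on MSA-ZW. The log2 differences (MSA-DA minus MSA-ZW) ran between 0.16 and 0.58 with a median of 0.30, beside a median of 0.00 over the 12467 tested genes. By edgeR, 5 of the 9 (Gas5, Snhg1, Snhg5, Snhg6 and Zfas1) were called higher at an adjusted p below 0.05, beside 6.92% of all tested genes called higher and 6.5% called lower (13.4% in all). In CPM the libraries of the gels did not overlap in 7 of the 9. Of all tested genes, 14.7% lay higher without overlap and 13.7% lay lower. Since the members were chosen on this comparison, nothing is read from these counts. Each member stayed under a 1.5-fold difference.

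**Figure D1:**
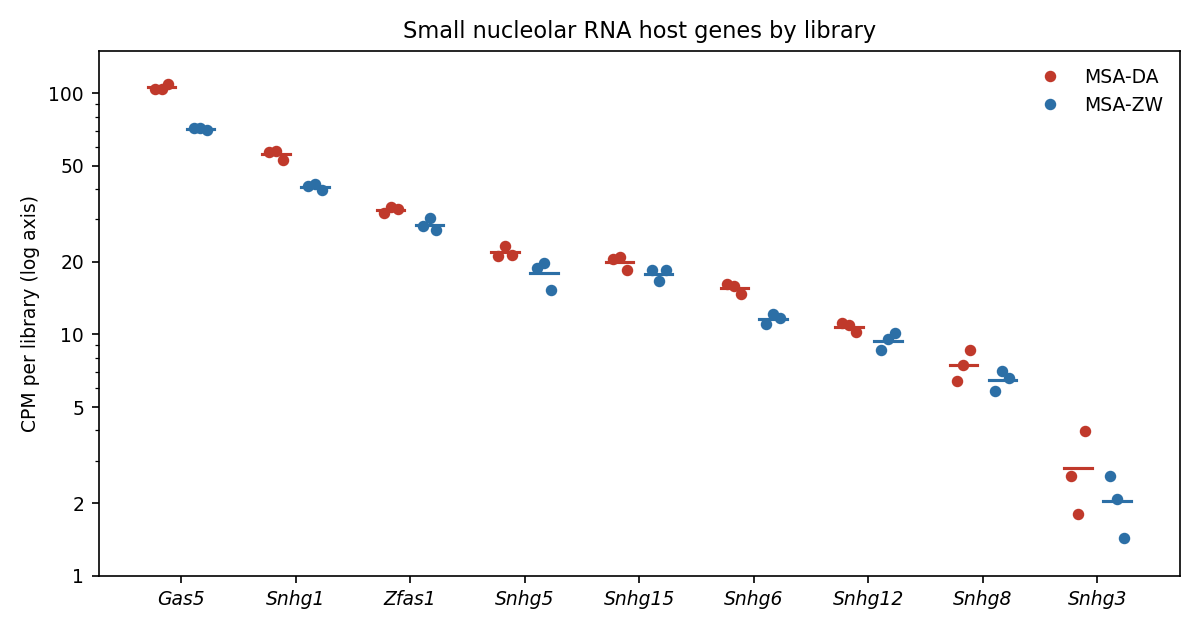
CPM of each host gene in each library on a log axis, with MSA-DA in red at the left and MSA-ZW in blue at the right of each pair, and lines at the group means (3 libraries each). Gas5 and Snhg1 lie highest and clear of overlap, while the libraries of Snhg8 and Snhg3 overlap.

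Gas5 was the most abundant host and had the largest fitted difference of the 9 in the edgeR fit of all 6 libraries. Without MSA-DA replicate 2 or MSA-ZW replicate 1 the difference of the scarce Snhg3 was larger (0.70 and 0.66, beside 0.58 for Gas5 in both). Gas5 (ENSMUSG00000053332, chromosome 1, 160861992 to 160866116, plus strand, GRCm39) had 105, 104 and 109 CPM on MSA-DA, against 71.5, 71.6 and 70.2 CPM on MSA-ZW. The libraries within a gel were tight and the gels stood far apart, with coefficients of variation of 2.69% on MSA-DA and 1.07% on MSA-ZW. It was 1.49-fold higher on MSA-DA, with a log2 difference of 0.58 and a standard error of 0.04, ranking 183 from the top among the 12467 tested genes. The exonic model of the deposited table covered 97.0% of the Gas5 locus, so reads from retained introns count toward the gene along with the spliced RNA.

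Snhg1 followed in abundance. This gene (ENSMUSG00000108414, chromosome 19, 8700801 to 8703811, plus strand, GRCm39) hosts a cluster of box C/D snoRNAs that includes Snord22. It stood at 56.8, 57.4 and 52.9 CPM on MSA-DA, against 41.1, 42.0 and 39.8 CPM on MSA-ZW. Every MSA-DA library was above every MSA-ZW library, at 1.36-fold and a log2 difference of 0.44 (standard error 0.05). Its exonic model spanned the whole locus (100%), with the same mixing of spliced and unspliced reads. The models of Zfas1, Snhg8 and Snhg12 also covered 100% of their loci, and that of Snhg15 covered 84.9%, with the same limit.

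Snhg6, the host of Snord87 (ENSMUSG00000098234, chromosome 1, 9926809 to 10014398, minus strand, GRCm39), had 16.1, 15.8 and 14.8 CPM on MSA-DA, against 11, 12.1 and 11.7 CPM on MSA-ZW. The groups were again apart, at 1.34-fold and a log2 difference of 0.42 (standard error 0.09). Snhg5, the host of the Snord50 pair (ENSMUSG00000097195, chromosome 9, 88377321 to 88405615, minus strand, GRCm39), had 21.2, 23.2 and 21.4 CPM on MSA-DA, against 18.8, 19.8 and 15.3 CPM on MSA-ZW. MSA-ZW replicate 3 was lowest and widened the gap, with coefficients of variation of 5.0% on MSA-DA and 13.1% on MSA-ZW. The difference of Snhg5 was 1.23-fold (log2 0.30, standard error 0.09), and 0.19 without MSA-ZW replicate 3. Without that library or without MSA-DA replicate 2 Snhg5 was not called, nor was it by DESeq2 or limma.

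Zfas1 starts antisense to the promoter end of Znfx1 and hosts the Snord12 family (ENSMUSG00000074578, chromosome 2, 166904854 to 166907783, plus strand, GRCm39). Its level was 32.0, 33.7 and 33.0 CPM on MSA-DA, against 28.0, 30.3 and 27.2 CPM on MSA-ZW. The lowest MSA-DA library stood just above the highest MSA-ZW library. The difference was small, 1.16-fold (log2 0.21, standard error 0.07), and the call held in 5 of 15 alternative fits. It was lost when any 1 library other than MSA-ZW replicate 2 was left out.

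Snhg12 and Snhg15 also kept their libraries apart in CPM but were not called. Snhg12 (chromosome 4, 132035932 to 132038762, plus strand, GRCm39), which hosts H/ACA snoRNAs and Snord99, had 11.2, 10.9 and 10.2 CPM on MSA-DA, against 8.58, 9.61 and 10.1 CPM on MSA-ZW. The lowest MSA-DA library stood barely above the top MSA-ZW library, and the log2 difference was 0.19 (standard error 0.11). Snhg15 (chromosome 11, 6475295 to 6478841, minus strand, GRCm39), the host of Snora9, had 20.5, 21 and 18.5 CPM on MSA-DA, against 18.4, 16.7 and 18.4 CPM on MSA-ZW. The lowest MSA-DA library of Snhg15 (18.46 CPM) stood barely above the highest MSA-ZW library (18.43 CPM). In FPKM its gels overlapped, at 6.11 for MSA-DA replicate 3, against 6.14 for MSA-ZW replicates 1 and 3. The log2 difference of Snhg15, 0.16 (standard error 0.08), was the smallest of the 9 in the edgeR fit of all 6 libraries. With the GC and length correction it was 0.20, above Zfas1, Snhg8 and Snhg12, and without MSA-DA replicate 3 it was 0.21, above Zfas1, Snhg8 and Snhg3.

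In Snhg8 and Snhg3 the gels overlapped. Snhg8 (chromosome 3, 123301194 to 123302053, minus strand, GRCm39), the host of Snora24, had 6.43, 7.44 and 8.63 CPM on MSA-DA, against 5.80, 7.04 and 6.58 CPM on MSA-ZW. Its log2 difference of 0.22 had a standard error of 0.13, and it was 0.10 without MSA-DA replicate 3 and 0.14 without MSA-ZW replicate 1. Snhg3 (chromosome 4, 132075325 to 132080997, minus strand, GRCm39), the host of the Snora73 pair, was the scarcest member, with 37, 33 and 63 counts on MSA-DA and 43, 34 and 26 counts on MSA-ZW. Its fitted log2 difference of 0.45 had a standard error of 0.27, and without MSA-DA replicate 3 it was 0.09.

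Per length of exonic sequence, the hosts stood in the same order on both gels. In the deposited FPKM (counts scaled by exonic length and library total), Gas5 averaged 26.4 ± 0.726 on MSA-DA and 17.8 ± 0.184 on MSA-ZW (n = 3 each, ± SD). Snhg1 averaged 18.4 ± 0.802 FPKM on MSA-DA and 13.6 ± 0.358 FPKM on MSA-ZW, and Zfas1 averaged 11.2 ± 0.297 and 9.74 ± 0.530 FPKM in the same order of gels. Snhg8, Snhg15, Snhg5, Snhg12, Snhg6 and Snhg3 followed, ending at 2.82 ± 1.13 FPKM on MSA-DA and 2.07 ± 0.596 FPKM on MSA-ZW for Snhg3. On MSA-DA the libraries of Snhg15 and Snhg5 overlapped in FPKM, as did those of Snhg12 and Snhg6 and those of Snhg6 and Snhg3. On MSA-ZW the only neighbours in this order that overlapped were Snhg6 and Snhg3. Snhg8, short at 860 exonic bases, ranked below Snhg15 in CPM and above it in FPKM.

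Summed over the 9 hosts, the level was 273 ± 2.09 CPM on MSA-DA, against 206 ± 5.21 CPM on MSA-ZW (n = 3 each, ± SD), a ratio of 1.33. Without Gas5 the other 8 summed to 167 ± 3.97 CPM on MSA-DA, against 135 ± 4.56 CPM on MSA-ZW, a ratio of 1.24. Gas5 alone made up 38.8 ± 1.16% of the sum on MSA-DA and 34.5 ± 0.574% on MSA-ZW. Gas5 and Snhg1 together held 59.2 ± 0.472% on MSA-DA and 54.4 ± 0.559% on MSA-ZW.

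Of the 15 other fits tried, Gas5, Snhg1 and Snhg6 were called higher in all 15, Snhg5 in 10 and Zfas1 in 5. Snhg12 and Snhg15 were called in 0 of 15. Snhg3 and Snhg8 were called in 0 of the 14 that gave an adjusted p, since DESeq2 gave none. DESeq2 called 3 of 9 members higher, beside 5.46% of its genes called higher and 5.06% lower (10.5% in all). For limma on log2(FPKM + 1) it was also 3, beside 3.83% higher and 4.51% lower (8.33% in all). A correction for GC content and transcript length called 4 of 9, beside 5.37% higher and 5.72% lower (11.1% in all). Without a filter on low counts it was 5 of 9, beside 3.26% higher and 3.13% lower (6.39% in all). The longest transcripts of the members had a median GC content of 45.1% (40.5% to 53.9%), below the median of 49.1% over all tested genes, and log2 differences fell with GC content across 12329 genes (Spearman rho of -0.32, a description across genes that share the same libraries). With the correction, the log2 differences of Gas5 and Snhg1 were 0.52 and 0.37.

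**Figure D2:**
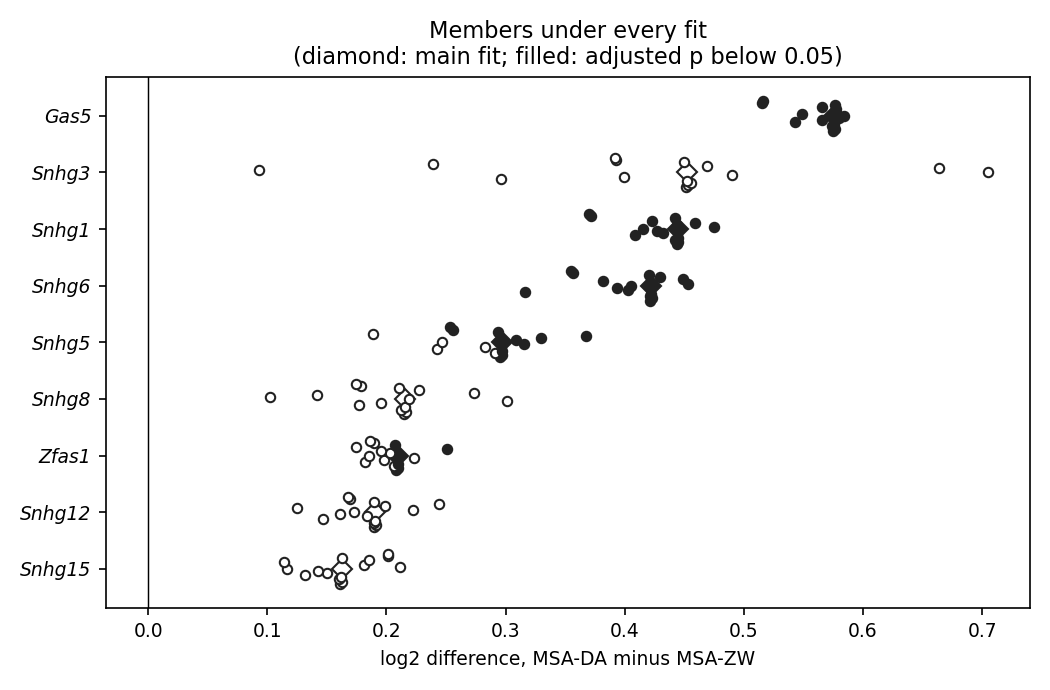
Log2 difference (MSA-DA minus MSA-ZW) of each member in the main edgeR fit (diamond) and in the 15 other fits (circles), filled where the adjusted p was below 0.05 and open where it was not or where none was given. All values lie above 0, those of Gas5 between 0.52 and 0.58 and those of Snhg3 between 0.09 and 0.70.

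Genes that lie next to the hosts were not used to choose them. Among the 10 tested genes within 5 kb of a member, 1 rose, 1 fell and 8 did not pass (edgeR, adjusted p below 0.05), beside 6.92% of all tested genes that rose and 6.5% that fell. Znfx1, an interferon-responsive helicase gene whose start lies 81 bases from that of Zfas1 on the opposite strand, fell. It had 283, 279 and 266 CPM on MSA-DA, against 324, 335 and 325 CPM on MSA-ZW, with no overlap. Its level was 1.19-fold lower on MSA-DA (log2 difference -0.25, standard error 0.03, edgeR adjusted p = 1.40e-07), while the fitted difference of Zfas1 was positive. Zfas1 and Znfx1 overlap by 82 bases.

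Gm17300, a predicted gene on the opposite strand inside the Snhg3 locus, rose. It had 4.96, 6.56 and 6.60 CPM on MSA-DA, against 4.11, 3.67 and 3.35 CPM on MSA-ZW, a log2 difference of 0.72 (standard error 0.16, edgeR adjusted p = 0.00191). Its 1611 bases lie wholly within Snhg3 and Rcc1, and no source used here gives the strand setting of the counting, so their reads cannot be told apart. Rcc1, the chromatin-bound exchange factor for Ran, overlaps Snhg3 on the same strand by 5592 bases and had 81.3, 83.4 and 80.4 CPM on MSA-DA, against 87.3, 89.2 and 86.3 CPM on MSA-ZW. The groups were apart, and the difference of -0.10 (log2, standard error 0.04) did not pass (edgeR adjusted p = 0.0989).

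Slc3a2, the heavy chain of amino acid transporters, starts 68 bases from Snhg1 on the opposite strand. It had 172, 173 and 168 CPM on MSA-DA, against 160, 164 and 166 CPM on MSA-ZW, and did not pass (log2 difference 0.07, standard error 0.03, edgeR adjusted p = 0.178). With the GC and length correction it was called higher, at 0.10 (edgeR adjusted p = 0.0151, and 0.0151 to 0.470 over the alternatives). Zbtb37 overlaps Gas5 by 428 bases on the opposite strand, where reads of the pair cannot be told apart. It had 12.2, 13.6 and 13.4 CPM on MSA-DA, against 13.7, 15.1 and 11.2 CPM on MSA-ZW, and its groups overlapped (log2 difference -0.02, standard error 0.10, edgeR adjusted p = 0.950). Of the other neighbours, Sgk3, Phactr4, Trnau1ap and Myo1g had log2 differences between -0.20 and 0.02 and did not pass. Sgk3 overlaps Snhg6 by 44262 bases on the opposite strand, with the same limit.

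**Figure D3:**
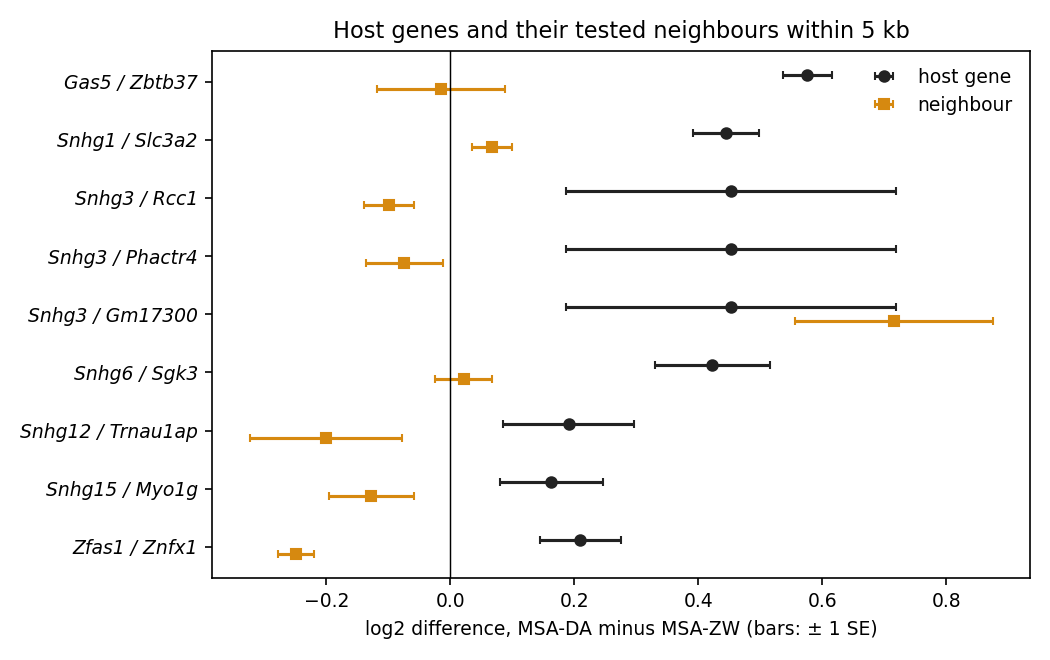
Log2 difference (MSA-DA minus MSA-ZW, bars ± 1 standard error) of host genes (black circles) and of the tested genes within 5 kb of them that are reported here (orange squares). Snhg5 and Snhg8 had no tested gene within 5 kb. The hosts shown lie above 0, while Znfx1 lies at -0.25 and Gm17300 at 0.72.

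Other noncoding snoRNA hosts form the nearest comparison. Of 12 further rows, 9 were tested, and by edgeR 1 of the 9 rose (11.1%, beside 6.92% of all tested genes), 0 fell and 8 did not pass. Their median log2 difference was 0.32, beside 0.00 over all tested genes, and 8 of the 9 were above 0. Some of these rows were scarce. The Snhg4 row at 0.77 had 17, 15 and 15 counts on MSA-DA, against 10, 9 and 10 counts on MSA-ZW. A row this scarce can pass the filter through the gel where it is higher, which can enlarge its difference. The median row, Epb41l4aos, had 33 to 59 counts per library. The median and the count above 0 are therefore a description only. Snhg17 rose, with 30.5, 34.7 and 33.9 CPM on MSA-DA, against 29.6, 26.6 and 24.7 CPM on MSA-ZW. Its libraries did not overlap, at 1.23-fold (log2 0.30, standard error 0.07, edgeR adjusted p = 0.00391). It lost its call without MSA-DA replicate 2 (adjusted p = 0.0553) and with limma (0.0959), in a range of 0.000736 to 0.0959 over all alternatives.

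Snhg20 had 8.18, 7.49 and 7.61 CPM on MSA-DA, against 6.89, 6.67 and 4.99 CPM on MSA-ZW, which did not overlap between gels but did not pass (edgeR adjusted p = 0.10). Snhg16 had 7.41, 9.19 and 6.72 CPM on MSA-DA, against 8.10, 6.30 and 8.89 CPM on MSA-ZW, with a log2 difference of 0.01 (standard error 0.13). Snhg10 was the one tested row below 0, at -0.29 (standard error 0.30). The remaining tested rows were Dancr, Epb41l4aos, Snhg14 and a pair of rows named Snhg4, between 0.24 and 0.77 with standard errors of 0.11 to 0.39, and of these Dancr passed without MSA-DA replicate 1 (edgeR adjusted p = 0.0474). Snhg9, Snhg11 and Snhg18 had 0 to 9 counts per library and were not tested.

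**Figure D4:**
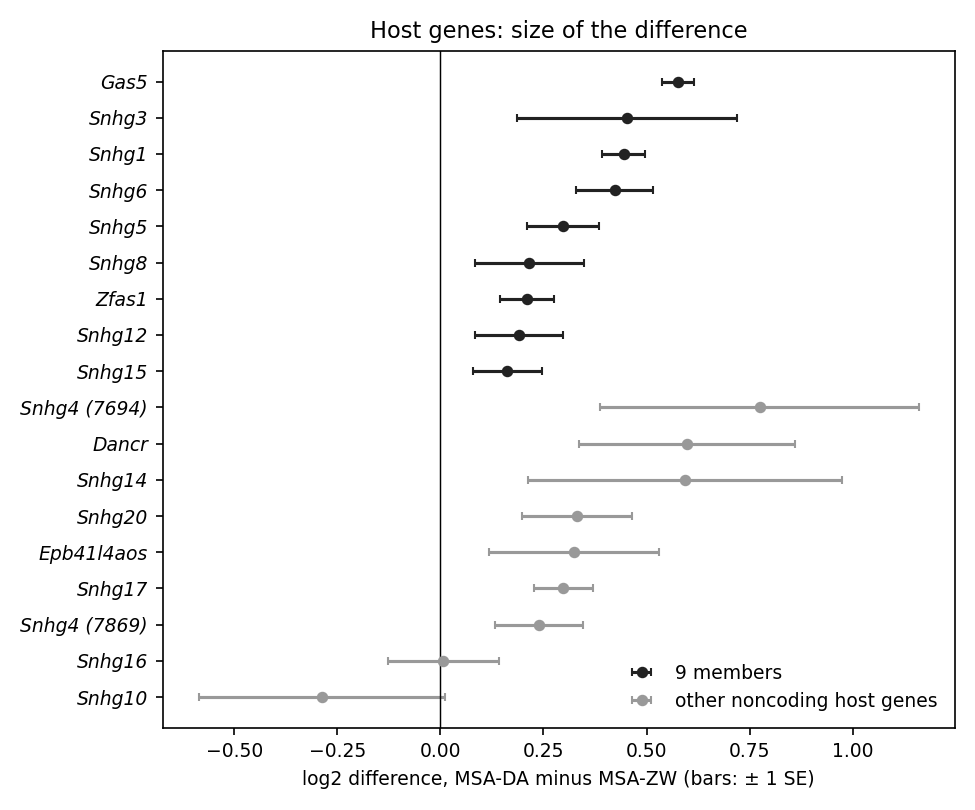
Log2 difference (MSA-DA minus MSA-ZW, bars ± 1 standard error) of the 9 members (black) and of the 9 other tested rows of noncoding snoRNA host genes (grey), with the pair of Snhg4 rows told apart by the last digits of the gene ID. Of the other hosts, Snhg10 at -0.29 is the only one below 0, and Snhg17 at 0.30 is the only one called.

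By coordinates, 211 tested genes other than the members held a snoRNA row on their own strand. Of the 194 that are protein-coding in GENCODE M21, 25 rose (12.9%) and 16 fell (8.25%), beside 6.92% and 6.5% of all tested genes. Their median log2 difference was -0.00. Among the 17 that are not protein-coding, 2 rose (11.8%), Snhg17 and 1110038B12Rik, and 0 fell, with a median of 0.32. This set overlaps the other noncoding hosts above and is not independent of them. Snhg17 is in both, and the median is again that of the scarce row Epb41l4aos, so it is a description only. 1110038B12Rik had a mean of 29.5 CPM on MSA-DA, against 22.5 CPM on MSA-ZW (log2 0.39, standard error 0.07, edgeR adjusted p = 0.000211). Of 638 tested genes of a long noncoding biotype, 39 rose (6.11%, beside 6.92% of all tested genes) and 7 fell (1.10%, beside 6.5%). Their median was 0.11. Leaving out those with a snoRNA row, 37 of 623 rose (5.94%) and 7 fell (1.12%), with a median of 0.10. In the short list of microRNA host genes, 2 of 3 rose (66.7%, beside 6.92% of all tested genes). Mir17hg and Mir22hg rose by log2 differences of 0.49 and 0.51 (standard errors 0.08 and 0.09, edgeR adjusted p of 2.17e-05 and 9.28e-05). The third gene did not pass, and its difference was not above 0. This list was chosen with earlier results of these data known, so its count is a description only.

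In the list of 32 tested protein-coding snoRNA hosts, 5 rose (15.6%), 4 fell (12.5%) and 23 did not pass, beside 6.92% and 6.5% of all tested genes, and the median was -0.00. Eif4a2, a translation initiation helicase, rose 1.21-fold, with a mean of 286 CPM (SD 0.417) for MSA-DA and 236 CPM (SD 2.15) for MSA-ZW, n = 3 each (edgeR adjusted p = 7.23e-09). The nucleolar proteins Ncl (nucleolin) and Nop56 rose by 0.10 and 0.13 on the log2 scale (edgeR adjusted p of 3.09e-05 and 0.00143). Eef2, the translocation factor of elongating ribosomes, fell by 0.12 and Rack1, a ribosome-bound scaffold, fell by 0.12 (edgeR adjusted p of 1.52e-05 and 0.000619). Rps3 fell by 0.08 (edgeR adjusted p = 0.0138), and without MSA-DA replicate 3 its adjusted p was 0.0679. Ribosomal protein genes have many pseudogene copies that can share reads, which leaves such small values uncertain.

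The proteins that build snoRNA particles gave 2 rises and 1 fall in all, and over all tested genes 6.92% rose and 6.5% fell. Of 8 core proteins, Nop56 (box C/D) rose (12.5%) and the other 7, among them the methyltransferase Fbl and the pseudouridine synthase Dkc1, did not pass. Of 13 assembly factors, Tgs1, the cap hypermethylase, rose by 0.13 (edgeR adjusted p = 0.00929) and Ruvbl2, an ATPase of the assembly chaperone, fell by 0.14 (adjusted p = 0.0173). Both lost their call after the GC and length correction (adjusted p of 0.162 and 0.257) and without MSA-DA replicate 3 (0.0663 and 0.104). Tgs1 also lost it without MSA-DA replicate 2 (0.0582), and Ruvbl2 without MSA-ZW replicate 1 (0.0590) or MSA-ZW replicate 3 (0.0660).

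Nonsense-mediated decay factors gave 2 rises (10%) and 1 fall (5%) among 20 tested, beside 6.92% and 6.5% of all tested genes. Smg6, the endonuclease of this pathway, fell 1.29-fold, with a mean of 188 CPM (SD 4.83) for MSA-DA and 242 CPM (SD 8.32) for MSA-ZW, n = 3 each (log2 difference -0.37, standard error 0.03, edgeR adjusted p = 1.50e-10). Pnrc2, a decay adaptor in human cells, rose by 0.20 (edgeR adjusted p = 0.000511). Upf3b rose by 0.13 at an adjusted p of 0.0459 that passed in 2 of 15 alternatives and in none that left out a library (0.0622 to 0.229).

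Genes whose transcripts are known in part to be cleared by nonsense-mediated decay gave 6 rises (28.6%) and 1 fall (4.76%) among 21 tested rows, beside 6.92% and 6.5% of all tested genes, with a median of 0.03. Splicing factors of the SR family were among the rises, with Srsf5 at a mean of 331 CPM (SD 6.69) for MSA-DA and 259 CPM (SD 6.18) for MSA-ZW, n = 3 each (log2 0.35, edgeR adjusted p = 6.13e-11). Srsf6 and Srsf2 rose by 0.13 and 0.12 (edgeR adjusted p of 0.00179 and 0.00616). Srsf6 lost its call after the GC and length correction (0.0528), and Srsf2 without MSA-DA replicate 2 (0.0574) or MSA-ZW replicate 2 (0.0885). Srsf2 also lost it with limma on log2(FPKM + 1) (0.0745). Rps9 was the member that fell, by 0.07 (adjusted p = 0.0450), a call that held in 5 of 15 alternatives. Of the same list, the stress genes Ddit3, Gadd45a and Gadd45b had log2 differences between -0.01 and 0.13 and did not pass. Whole-gene counts do not separate the isoforms that decay acts on.

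In the RNA exosome and nuclear decay list 3 of 19 rose (15.8%) and 0 fell, beside 6.92% and 6.5% of all tested genes. Dis3, the catalytic exosome subunit, rose by 0.18, the poly(A) polymerase Tent4b by 0.15 and the exosome subunit Exosc9 by 0.15 (edgeR adjusted p of 0.00467, 0.00977 and 0.0370). All of these lost their call without MSA-DA replicate 3 (0.0767, 0.0544 and 0.231). Tent4b also lost it without MSA-ZW replicate 2 (0.0530). Exosc9 also lost it without MSA-DA replicate 2 (0.131), MSA-ZW replicate 1 (0.0672) or MSA-ZW replicate 2 (0.255). With all libraries, Dis3 lost its call with limma on log2(FPKM + 1) (0.0913) and Tent4b with DESeq2 (0.0566). Exosc9 lost it with DESeq2 (0.147), limma on log2(FPKM + 1) (0.170) and the GC and length correction (0.285). Of 15 alternatives, the call was lost in 3 for Dis3, 4 for Tent4b and 9 for Exosc9.

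Calls went both ways in a list of translation genes that share the pyrimidine-tract start, and were mostly falls among ribosomal protein genes. Of 20 translation genes of this class 3 rose and 3 fell (15% each), beside 6.92% and 6.5% of all tested genes. The rises were the nucleolar chaperone Npm1 (log2 0.13, edgeR adjusted p = 8.97e-07), Hnrnpa1 (0.12, 0.000161) and the histone chaperone Nap1l1 (0.10, 0.00491). The falls were Eef2, Rack1 and the elongation factor Eef1a1, which fell by 0.07 (edgeR adjusted p = 0.000931). Nap1l1 lost its call without MSA-DA replicate 2 (0.0901), without MSA-ZW replicate 2 (0.0513) and with limma on log2(FPKM + 1) (0.0518). It also lost it after the GC and length correction, where its difference was 0.02. Of 83 cytosolic ribosomal protein genes tested, 1 rose (1.2%) and 14 fell (16.9%), with a median of -0.03. Of 17 mTORC1 pathway and TOP regulator genes, among them Mtor, Rptor, Larp1 and Eif4ebp1, 0 passed by edgeR, with 1 at an unadjusted p under 0.05, and 0 passed by DESeq2 or limma. Without MSA-ZW replicate 2, or without MSA-ZW replicate 3, 1 of the 17 passed.

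**Figure D5:**
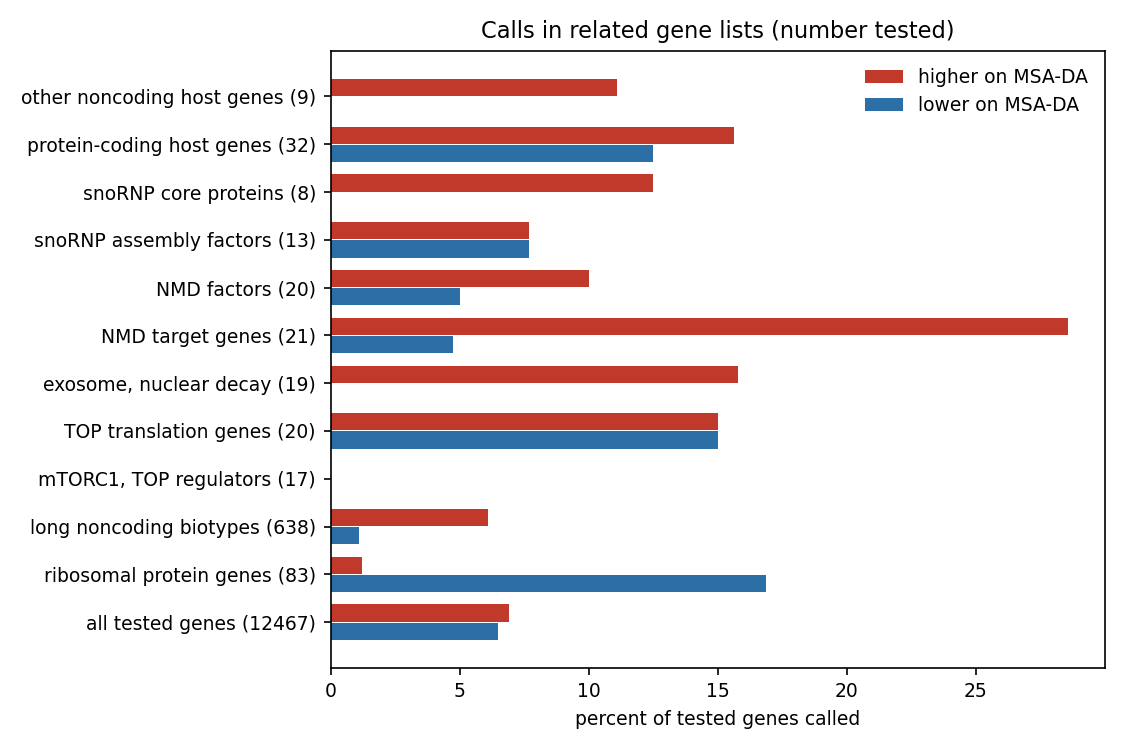
Percent of tested genes called higher (red) and lower (blue) on MSA-DA in each list, with the number tested in brackets and all tested genes in the bottom row at 6.92% and 6.5%. Long noncoding biotypes have more rises than falls, and ribosomal protein genes more falls than rises.

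Genes tied to Gas5 through the glucocorticoid receptor, which Gas5 RNA binds in human cells, gave 1 rise of 8 tested (12.5%, beside 6.92% of all tested genes). Klf9, a receptor target, stood at a log2 difference of 0.21 (edgeR adjusted p = 0.0317), and lost its call in 10 of 15 alternatives, among them the fits without MSA-DA replicate 1, 2 or 3 and without MSA-ZW replicate 1 or 2 (0.0898 to 0.171). The receptor Nr3c1 and its targets Tsc22d3, Fkbp5, Per1, Dusp1 and Sgk1, with the corepressor Ncor1, did not pass.

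The 3 genes whose library profile lay closest to the mean of the members, among 7131 tested genes outside the host gene lists with a mean of at least 20 CPM, were Slc7a11, Ttc14 and Sat1. Closeness was the root mean square difference of log2 CPM centred on each gene's own mean over the 6 libraries, and it was 0.0270, 0.0335 and 0.0336. Slc7a11, the cystine transporter, had 369, 364 and 390 CPM on MSA-DA, against 315, 304 and 291 CPM on MSA-ZW. Sat1, a polyamine acetylase, had 238, 243 and 242 CPM on MSA-DA, against 188, 195 and 186 CPM on MSA-ZW. Ttc14 had 79.5, 78.0 and 83.3 CPM on MSA-DA, against 69.0, 66.5 and 61.9 CPM on MSA-ZW. The choice by profile fixes that these genes separate the gels, so nothing is read from their differences.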

How the data were processed

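RNA-seq was compared between 3 MSA-DA and 3 MSA-ZW libraries, grouped and numbered by their titles. The build GRCm39 and the tools HISAT2 2.2.1, cutadapt 1.9.1 and bcl2fastq 2.20.0.422 are named in the submitters' processing notes. No source used here gives the counting tool or its strand setting. The authors deposited whole-number counts and FPKM values for each library. The FPKM values equal counts per exonic length and library total to within 0.011.

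The counts were tested with edgeR 4.0.16 in R 4.3.3 (TMM, filterByExpr, glmQLFit and glmQLFTest with group as the only term), with Benjamini-Hochberg adjustment over 12467 genes and a threshold of 0.05. The standard error is the log2 difference divided by the square root of F. In data simulated for this comparison over 12467 genes, 50 genes were changed at each size. The share recovered was 72% at 1.2-fold, 96% at 1.5-fold and 100% at 2-fold, with 7 false calls. These shares are not split by expression level. The changed genes were drawn only from genes above a minimum mean CPM that Snhg3 did not reach. The shares therefore do not give the recovery for genes as scarce as Snhg3.

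Alternatives used DESeq2 1.42.0, limma 3.58.1 on log2(FPKM + 1), other scalings, no filter, a replicate block and each library left out. The GC and length correction was added after seeing the data. The members and lists were chosen with earlier results of these data known. Named are the members, up to 3 called genes per list and direction by smallest p, tested neighbours within 5 kb and the 3 closest profiles; other host rows, 1110038B12Rik and genes given as not passing were added after their values were seen. GENCODE M21 gave biotypes, GC content and snoRNA sequences. Of the tested neighbours, 1 is counted but not reported here.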

Additional observations from a re-analysis of the deposited data

How the results depend on the processing

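No member's difference changed sign in any of the 15 alternatives, and 129 of 135 member values moved by less than 1 SD between replicates. The 1673 calls over all genes became 942 with DESeq2, 906 with limma on log2(FPKM + 1), 895 with limma on log2(FPKM + 0.1), and 1001 to 1654 when 1 library was left out. Calls among the 9 members became 3 with DESeq2 and with both limma fits, and 3 to 5 with a library left out. Calls over the related lists, 32 at first, became 18 and 19 with limma (pseudocounts 1 and 0.1) and 18 to 34 with a library left out. The 2 calls among neighbours became 1 with DESeq2 and stayed 2 with any library left out. The all-gene count was 1001 without MSA-DA replicate 2 and 1065 without MSA-DA replicate 3, the list count was 18 without either of these, and the member count was 3 without MSA-DA replicate 2 or MSA-ZW replicate 3. The cause of these moves was not tested, although fits with a library left out rest on fewer samples. RLE and upper quartile scaling, no filter and the GC and length correction each left these counts within 1.5 times. The replicate block gave 1594 calls over all genes, 5 among members, 30 over the lists and 2 among neighbours. Same-numbered libraries did not deviate together (correlations of 0.01, 0.00 and -0.00). This gave no sign that the numbers pair the samples, but it cannot exclude pairing, since a weak shared effect could go unseen. Depth limits Snhg3, which had at most 63 counts in a library.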
